A study of Rattus norvegicus with 12 samples.

Results

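The Nap1l histone chaperone family was taken as every gene in the deposited tables whose symbol is Nap1l1, Nap1l2, Nap1l3, Nap1l4, Nap1l5 or Set, which gave 6 of 18469 genes. RNA was measured in 12 libraries of neonatal rat ventricular myocytes (NRVMs), heart muscle cells taken from newborn Sprague-Dawley rats and cultured in DMEM with insulin, transferrin and selenium. The 4 groups held 3 libraries each. By the labels, cells of the siNeg group received a negative control siRNA, and cells of the siSlc25a26 group an siRNA against Slc25a26, the mitochondrial carrier of S-adenosylmethionine. In the siNeg PE and siSlc25a26 PE groups, phenylephrine (PE), an agonist of α1-adrenergic receptors that makes these cells grow, was added 12 h after transfection and left for 36 h. The comparisons ask how PE changes the family under either siRNA and how the siRNA changes it with and without PE. The submitters call the samples of a group independent biological replicates without saying whether these were separate cultures or isolations, so the p-values measure only the spread between these samples, which may be partly technical. Total counts ranged from 24770972 to 28709049 per library.

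Proteins of this family bind histones, mainly H2A and H2B, and hand them to DNA when nucleosomes are built or taken apart. Nap1l1 and Nap1l4 are made in most tissues, Nap1l2 and Nap1l3 are known mainly from neurons, and Nap1l5 is an imprinted gene without introns. Set is a related chaperone that also inhibits the phosphatase PP2A.

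The targeted gene was examined first. Slc25a26 measured 13.8, 13.1 and 12.2 FPKM (fragments per kilobase of gene, scaled by the library total) in the siNeg libraries and 6.09, 5.96 and 5.41 FPKM in the siSlc25a26 libraries. With PE it measured 47.0, 44.1 and 36.3 FPKM after siNeg and 38.7, 40.6 and 38.6 FPKM after siSlc25a26. Without PE the groups did not overlap, while under PE they did. The log2 fold change of siSlc25a26 against siNeg was -1.08 ± 0.08 (SE) without PE and -0.01 ± 0.10 under PE, with adjusted p = 1.08e-05 and 0.969 in edgeR (quasi-likelihood F-test, p-values adjusted over all tested genes by Benjamini and Hochberg). The target gene therefore does not bear out the siRNA label under PE, and these samples are called the libraries labelled siSlc25a26 PE. A publication that lists this series describes libraries with an siRNA against Nap1l5 and with other times, whereas the submitters' labels name siSlc25a26. The groups here follow the labels. The fall of Slc25a26 without PE runs in the direction of its label, and under PE no such fall was measured. Which siRNA the cells received was not tested beyond the values of Slc25a26, Nppa and Nppb in this paragraph. The falls of Nap1l5 given below are therefore to be read with that doubt. Every direction given for the libraries labelled siSlc25a26 PE rests on their label, and values without them are those of the other 3 groups. The hypertrophy markers Nppa and Nppb, which encode natriuretic peptides, rose with PE by log2 fold changes of 4.63 and 5.37 in siNeg and of 4.51 and 5.32 in siSlc25a26. Both were also higher with siSlc25a26, by 1.14 and 1.97 without PE and 1.02 and 1.91 under PE, with adjusted p from 8.73e-05 to 0.000562 in these 4 edgeR tests, and were called so in all 15 alternatives, with adjusted p of at most 0.00336.

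The row labelled Set needs care. Its identifier, Gene 307947, is named Setsip in the RefSeq table of rat assembly GRCr8, and Set itself has another identifier with no row among those analysed here. RefSeq lists 17 Set pseudogenes and Set-like genes, of which 1 has a row (LOC367277, named Set-ps13), at 7 to 20 counts. Reads of Set and its copies could have been split between them, so the level of this row is uncertain and shares are also given without it. The other 5 members matched RefSeq by both identifier and symbol. Nap1l6 was not analysed here. All 6 members passed the filter on low counts in each of the 5 comparisons.

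Nap1l4 and Nap1l1, the widely expressed members, were the most abundant per unit of length. Nap1l4 measured 75.3, 78.8 and 75.7 FPKM in siNeg, 96.8, 90.7 and 90.7 in siNeg PE, 73.9, 76.8 and 75.1 in siSlc25a26, and 79.7, 81.6 and 79.9 in the libraries labelled siSlc25a26 PE. The PE groups lay above their untreated groups without overlap, and the libraries labelled siSlc25a26 PE lay below siNeg PE. The groups without PE overlapped on this scale but not in CPM (counts scaled by TMM library size), at 156.4 to 162.3 CPM in siSlc25a26 against 163.7 to 170.9 CPM in siNeg. Nap1l1 measured 62.6, 68.7 and 71.4 FPKM in siNeg, 77.3, 95.9 and 95.7 in siNeg PE, 59.1, 64.0 and 63.2 in siSlc25a26, and 69.0, 74.3 and 92.3 in the libraries labelled siSlc25a26 PE. Its PE groups also lay above their untreated groups, and siSlc25a26 overlapped siNeg in both states. Nap1l4 exceeded Nap1l1 in 9 of 12 libraries, so their order did not hold throughout.

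Nap1l2 and Nap1l3, both on chromosome X, were far lower. Nap1l3 measured 2.03, 2.67 and 3.07 FPKM in siNeg, 3.47, 4.40 and 4.96 in siNeg PE, 3.08, 3.85 and 2.88 in siSlc25a26, and 3.32, 3.49 and 4.31 in the libraries labelled siSlc25a26 PE. Nap1l2 measured 0.54, 0.69 and 0.78 FPKM in siNeg, 0.92, 1.23 and 1.21 in siNeg PE, 0.79, 1.03 and 1.01 in siSlc25a26, and 0.79, 0.85 and 0.85 in the libraries labelled siSlc25a26 PE. For both genes siNeg PE lay above siNeg without overlap. With siSlc25a26 the PE and untreated groups of both genes overlapped, and under PE siSlc25a26 lay below siNeg without overlap for Nap1l2 alone. Without PE the direction for Nap1l2 was the opposite, with siSlc25a26 just above siNeg in FPKM (0.79 against 0.78 at the nearest). In CPM those groups overlapped, at 1.74 to 2.28 CPM in siSlc25a26 and 1.23 to 1.77 CPM in siNeg.

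Nap1l5 changed more than any other member in each of the 4 comparisons between groups. It measured 1.61, 2.27 and 3.10 FPKM in siNeg, 8.40, 9.98 and 12.6 in siNeg PE, 0.94, 1.29 and 1.83 in siSlc25a26, and 5.22, 4.92 and 4.05 in the libraries labelled siSlc25a26 PE. The counts behind these values were 70, 91 and 128, then 338, 410 and 485, then 41, 59 and 79, then 225, 206 and 175. Both PE groups lay above both untreated groups, and the libraries labelled siSlc25a26 PE lay below siNeg PE. Without PE the highest siSlc25a26 library exceeded the lowest siNeg library, so those groups overlapped.

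The row labelled Set measured 7.63, 9.76 and 10.97 FPKM in siNeg, 8.41, 7.34 and 11.2 in siNeg PE, 8.44, 12.2 and 13.8 in siSlc25a26, and 12.7, 13.1 and 12.3 in the libraries labelled siSlc25a26 PE. In FPKM only the libraries labelled siSlc25a26 PE stood clear of a group they are compared with, namely siNeg PE. In CPM they also lay above siSlc25a26, at 20.1 to 21.1 CPM against 12.3 to 19.9 CPM. By level the members ran Nap1l4 and Nap1l1, then the Set row, then Nap1l5 and Nap1l3, and last Nap1l2. Nap1l5 exceeded Nap1l3 in 3 of 3 siNeg PE libraries, 2 of 3 labelled siSlc25a26 PE, 1 of 3 siNeg and 0 of 3 siSlc25a26 libraries. The Set row exceeded Nap1l5 in 10 of 12 libraries, the exceptions being in siNeg PE.

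**Figure D1:**
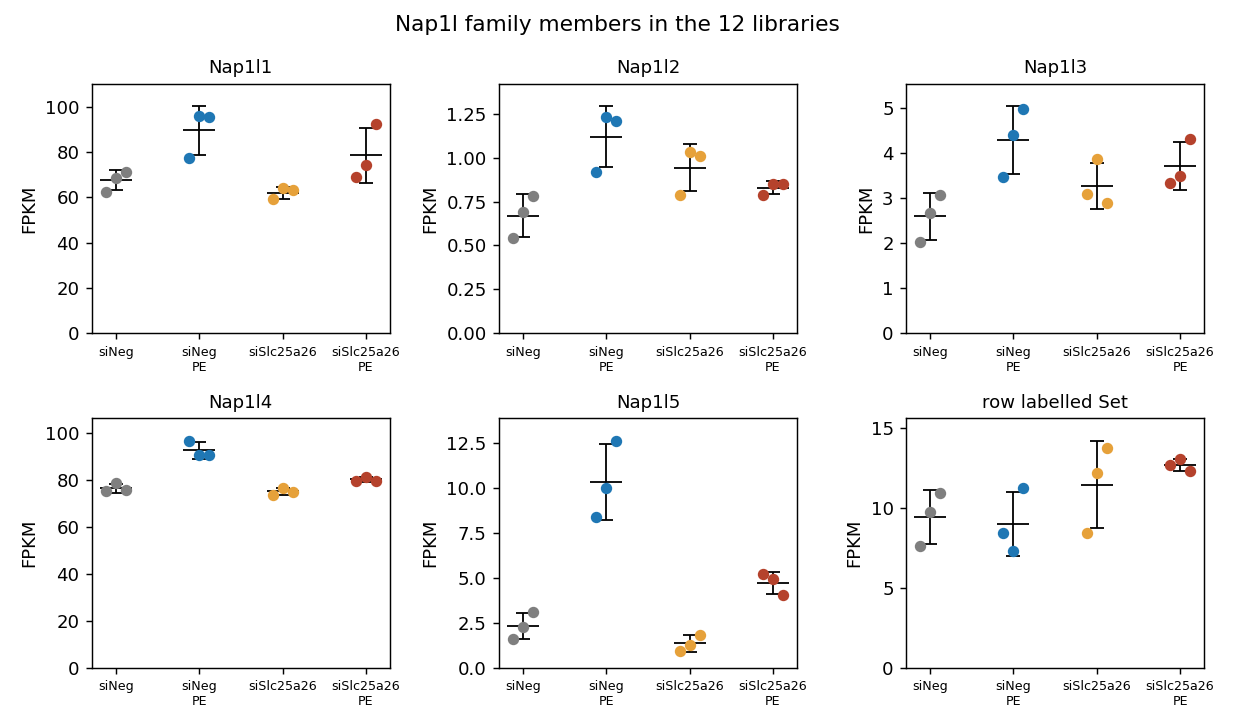
FPKM of each family member (vertical axis, from 0 and with its own scale in each panel) in the 4 groups; each point is a library, and bars show the mean and SD over 3 libraries. Nap1l5 reaches 8.40 to 12.6 in siNeg PE against 1.61 to 3.10 in siNeg, while Nap1l1 and Nap1l4 stay at much higher levels in all groups.

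The promoters of the 3 members called with PE in siNeg cells are shown because that comparison called the most members, with the 250 bases before each start as RefSeq gives them for GRCr8. Promoters were matched by identifier for 5 of 6 members. All 3 lie on the minus strand: Nap1l5 at chr4:89354705-89354954, Nap1l2 at chrX:72242248-72242497 and Nap1l3 at chrX:92610427-92610676. Capitals mark matches on either strand to the GC box GGGCGG, the cAMP response element half-site TGACG, the E-box CACGTG, the TATA box TATAAA or the M-CAT element CATTCC, motifs chosen with the Nap1l5 sequence in view.
Nap1l5: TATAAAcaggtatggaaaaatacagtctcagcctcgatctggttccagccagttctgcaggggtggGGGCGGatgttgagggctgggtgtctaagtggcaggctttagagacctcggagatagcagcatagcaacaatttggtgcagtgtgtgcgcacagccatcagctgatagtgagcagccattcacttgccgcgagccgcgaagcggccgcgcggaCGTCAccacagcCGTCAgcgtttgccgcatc
Nap1l2: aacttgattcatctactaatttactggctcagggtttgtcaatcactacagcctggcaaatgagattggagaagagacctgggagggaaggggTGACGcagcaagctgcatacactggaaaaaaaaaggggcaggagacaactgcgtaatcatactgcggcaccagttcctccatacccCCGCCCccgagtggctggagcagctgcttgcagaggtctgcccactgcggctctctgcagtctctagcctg
Nap1l3: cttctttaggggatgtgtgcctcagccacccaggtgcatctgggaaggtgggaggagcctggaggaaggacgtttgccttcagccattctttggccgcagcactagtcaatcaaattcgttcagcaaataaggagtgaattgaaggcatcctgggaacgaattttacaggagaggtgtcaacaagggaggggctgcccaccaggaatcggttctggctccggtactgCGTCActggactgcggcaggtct
The TGACG half-site occurred in all 5 matched Nap1l promoters, with 2 matches in that of Nap1l5, and in 18.2% of 33469 rat promoters of this length. The GC box occurred in those of Nap1l1, Nap1l2 and Nap1l5, against 30.5% of all promoters. TATAAA occurred in that of Nap1l5, against 12.9%, at the end of the window farthest from the start. Neither CACGTG (5.59% of all) nor CATTCC (12.1% of all) occurred in any of the 5. The Nap1l5 window held 16 CG dinucleotides and that of Nap1l1 20, against 6 to 8 in the others and a median of 5 over all promoters. These are matches of letters only.

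PE in siNeg cells raised most of the family. Genes counted as called where the fold change exceeded 1.5 in either direction and the adjusted p in edgeR was under 0.05. By this rule 3 of the 6 members were called, all higher, where 20.7% of 13719 tested genes were called in either direction. By the adjusted p alone 5 members passed, all higher, against 49.5% of genes. The median log2 fold change was 0.64 over the members and 0.00 over all genes.

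Nap1l5 rose by a log2 fold change of 2.17 ± 0.23 (SE; adjusted p = 0.000197 in edgeR, 3 libraries against 3). Nap1l3 and Nap1l2 rose by 0.77 ± 0.18 and 0.78 ± 0.21 (edgeR, adjusted p = 0.00807 and 0.0151). The call of Nap1l2 was lost without siNeg replicate 1 (log2 fold change 0.66, edgeR adjusted p = 0.0504) or siNeg PE replicate 2 (0.71, adjusted p = 0.0588). Nap1l1 and Nap1l4 rose by 0.51 ± 0.09 and 0.32 ± 0.05 (edgeR, adjusted p = 0.00278 and 0.00179), below the fold threshold, which Nap1l1 exceeded without siNeg PE replicate 1 (0.60). With limma on log2(FPKM + 1), Nap1l2 and Nap1l3 also fell below it, at 0.34 and 0.56. The Set row gave -0.02 ± 0.17 (edgeR, adjusted p = 0.923), and its sign turned without siNeg replicate 3 or siNeg PE replicate 1 or 2, at 0.10, 0.02 and 0.10.

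PE in siSlc25a26 cells called 1 of 6 members, Nap1l5, where 20.5% of 13776 genes were called in either direction. By the adjusted p alone 3 members passed, all higher, against 52.4% of genes. Nap1l5 rose by a log2 fold change of 1.97 ± 0.22, Nap1l1 by 0.56 ± 0.10 and Nap1l4 by 0.27 ± 0.04 (edgeR, adjusted p = 0.000104, 0.00132 and 0.000923). Nap1l1 was called without siSlc25a26 PE replicate 1 or 2 or siSlc25a26 replicate 3, at 0.65, 0.59 and 0.59. For Nap1l4 the adjusted p missed 0.05 with limma on log2(FPKM + 1) and on log2(FPKM + 0.1), at 0.09 and 0.10 with adjusted p of 0.0728 and 0.078, in a range from 4.59e-06 to 0.078 over 15 alternatives. Nap1l3, Nap1l2 and the Set row gave 0.35 ± 0.14, -0.01 ± 0.18 and 0.34 ± 0.15 (edgeR, adjusted p = 0.0595, 0.96 and 0.0863). Nap1l3 passed without siSlc25a26 PE replicate 1 (0.42, adjusted p = 0.039) or siSlc25a26 replicate 2 (0.48, adjusted p = 0.0272), and the Set row without siSlc25a26 replicate 3 (0.50, adjusted p = 0.0195). The sign of the Nap1l2 value turned without siSlc25a26 PE replicate 1 or siSlc25a26 replicate 2 or 3, at 0.02, 0.05 and 0.04.

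siSlc25a26 without PE called 1 of 6 members, again Nap1l5, where 16.1% of 13829 genes were called in either direction. By the adjusted p alone it was also 1 of 6, against 45% of genes. Nap1l5 gave a log2 fold change of -0.84 ± 0.29 (95% confidence interval -1.49 to -0.19; edgeR, adjusted p = 0.0397). This call was lost on leaving out any of 4 libraries, while the value kept its sign in all 15 alternatives. Each such fit also has fewer libraries. Adjusted p was 0.0745 without siNeg replicate 2, 0.0963 without siNeg replicate 3, 0.125 without siSlc25a26 replicate 1 and 0.107 without siSlc25a26 replicate 2, at log2 fold changes of -0.86, -0.61, -0.63 and -0.81 (edgeR). Over all 15 alternatives the value ran from -1.12 to -0.49 and adjusted p from 0.00647 to 0.125, under 0.05 in 9 of them (edgeR, limma or DESeq2). Nap1l1 gave -0.17 ± 0.07, Nap1l4 -0.08 ± 0.05, Nap1l2 0.43 ± 0.21, Nap1l3 0.28 ± 0.17 and the Set row 0.24 ± 0.18 on the log2 scale, none passing in edgeR. Nap1l1 passed in 4 of 15 alternatives, among them without siNeg replicate 1 (-0.23, edgeR adjusted p = 0.014), with adjusted p from 0.014 to 0.274 over all of them.

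siSlc25a26 under PE called 2 of 6 members, where 15.8% of 13671 genes were called in either direction. The same 2 passed by the adjusted p alone, against 40.1% of genes. Nap1l5 fell by a log2 value of -1.05 ± 0.15 (95% confidence interval -1.38 to -0.72; edgeR, adjusted p = 0.000636), and it passed in all 15 alternatives. The Set row rose by 0.59 ± 0.13 (edgeR, adjusted p = 0.00532), close to the fold threshold at 1.51-fold. Its adjusted p was under 0.05 in all 15 alternatives, but the fold exceeded the threshold in 10 of them. The call was lost without siNeg PE replicate 1 or 2 (0.57 and 0.48), with at least 10 counts in every library (0.58) and with limma on log2(FPKM + 1) and on log2(FPKM + 0.1) (0.47 and 0.52), which leaves Nap1l5 as the called member. Nap1l2 gave -0.36 ± 0.18, Nap1l3 -0.13 ± 0.14, Nap1l1 -0.12 ± 0.11 and Nap1l4 -0.14 ± 0.06, none passing in edgeR. Nap1l4 passed in 4 of 15 alternatives, among them without siNeg PE replicate 3 (-0.19, edgeR adjusted p = 0.0371), with adjusted p from 0.00934 to 0.323 over all of them. The libraries of this comparison labelled siSlc25a26 PE are those whose target gene was not lower.

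Of the difference between the PE effects (siSlc25a26 minus siNeg), 0 of 6 members passed in edgeR under either rule, where 5.5% of 14097 genes were called and 11.2% passed the adjusted p alone. Nap1l2 came nearest at -0.81 ± 0.26 on the log2 scale (edgeR, unadjusted p = 0.00903, adjusted p = 0.0675), and it was the single member with an unadjusted p under 0.05. Its adjusted p ranged from 0.0242 to 0.153 over 20 alternatives and was under 0.05 in 5 of them, among them without siNeg replicate 3 (-0.94, edgeR adjusted p = 0.0464) and without siNeg PE replicate 1 (-0.93, edgeR adjusted p = 0.0429). For Nap1l5 the difference was -0.22, with a 95% confidence interval from -0.97 to 0.53 (edgeR, adjusted p = 0.723), which leaves room for a sizeable difference either way, and its sign turned without siSlc25a26 replicate 3 (0.06). DESeq2 and limma-voom also passed 0 of the 6, while limma on log2(FPKM + 1) passed Nap1l2 and Nap1l4 (-0.43 and -0.18, adjusted p = 0.0242 and 0.0472).

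The siRNA effect averaged over both PE states was added after the Nap1l5 call without PE was seen to be lost on leaving out libraries. It gave -0.93 ± 0.17 for Nap1l5, 0.43 ± 0.12 for the Set row and -0.09 ± 0.03 for Nap1l4 (edgeR on 12 libraries, adjusted p = 0.000536, 0.00999 and 0.032). These 3 of 6 members passed by the adjusted p alone, where 55.7% of 14097 genes did, so the count is no larger than among all genes. This average includes the libraries labelled siSlc25a26 PE. The PE effect averaged over both siRNAs passed for 5 of 6 members, all higher, against 64.1% of genes, at 2.07 ± 0.17 for Nap1l5, 0.56 for Nap1l3, 0.53 for Nap1l1, 0.38 for Nap1l2 and 0.30 for Nap1l4 (edgeR, adjusted p from 3.95e-07 to 0.0219). The Set row gave 0.16 ± 0.12 (edgeR, adjusted p = 0.28). The comparisons share control libraries, so their values are not independent of each other.

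**Figure D2:**
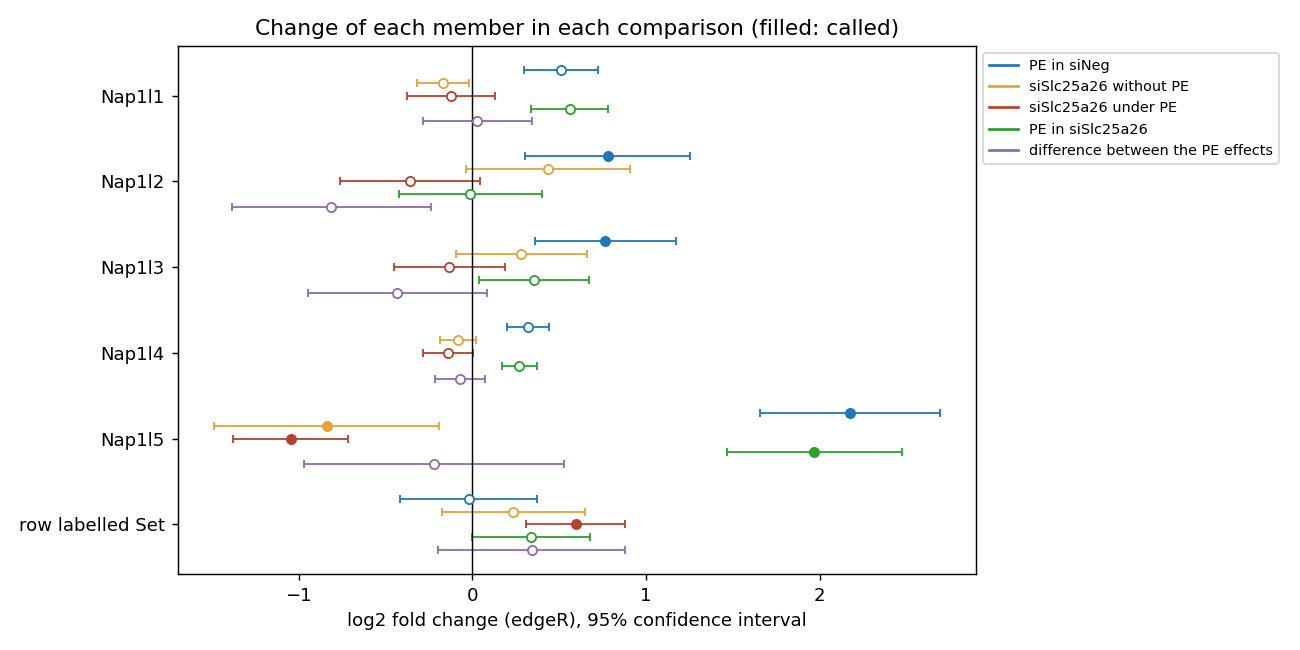
Log2 fold change of each member (horizontal axis) with its 95% confidence interval from edgeR in the 5 comparisons, coloured by comparison; filled points were called. Nap1l5 lies at 2.17 and 1.97 for PE and at -0.84 and -1.05 for siSlc25a26.

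The relative share of each paralog was taken within each library, as its percentage of the summed FPKM of all 6 members. The sum was 149.7, 162.9 and 165.0 FPKM in siNeg, 195.2, 209.5 and 216.4 in siNeg PE, 146.2, 159.2 and 157.8 in siSlc25a26, and 170.7, 178.3 and 193.8 in the libraries labelled siSlc25a26 PE. Both PE groups lay above their untreated groups. Nap1l1 and Nap1l4 together made up 86.1% to 92.1% of the sum in every library. Because shares of a library add up to a whole, a gain of 1 member lowers the others.

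Nap1l5 had shares of 1.08, 1.39 and 1.88% in siNeg, 4.30, 4.76 and 5.83% in siNeg PE, 0.643, 0.81 and 1.16% in siSlc25a26, and 3.06, 2.76 and 2.09% in the libraries labelled siSlc25a26 PE. The means were 1.45 ± 0.405, 4.96 ± 0.781, 0.871 ± 0.264 and 2.64 ± 0.496% (SD, n = 3 libraries each). Only siNeg and siSlc25a26 overlapped among the 4 comparisons. The mean with PE minus that without was 2.64 percentage points within siRNAs (two-sided exact permutation p = 0.005, the smallest 400 arrangements can give). That of siSlc25a26 minus siNeg was -1.45 within PE states (exact permutation p = 0.01). It averages -0.578 without PE and -2.33 under PE, so the larger part comes from the libraries labelled siSlc25a26 PE.

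The Set row had shares of 5.10, 5.99 and 6.65% in siNeg, 4.31, 3.50 and 5.19% in siNeg PE, 5.77, 7.67 and 8.71% in siSlc25a26, and 7.43, 7.34 and 6.37% in the libraries labelled siSlc25a26 PE. The last group lay above siNeg PE without overlap. Within PE states the share was higher by 2.09 percentage points with siSlc25a26 (exact permutation p = 0.015), an average of 1.47 without PE and 2.71 under PE. The PE difference within siRNAs was -0.959 percentage points (exact permutation p = 0.13), and -1.36 without siSlc25a26 replicate 1 (exact permutation p = 0.015).

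Nap1l4 held 48.2 ± 2.21, 44.9 ± 4.07, 48.8 ± 1.54 and 44.6 ± 2.92% in siNeg, siNeg PE, siSlc25a26 and the libraries labelled siSlc25a26 PE (SD, n = 3). With PE its share was lower by a difference of -3.75 percentage points within siRNAs (exact permutation p = 0.045), which passed on leaving out siNeg replicate 3, siNeg PE replicate 1 or siSlc25a26 PE replicate 1, and missed 0.05 on leaving out any of the other 9 libraries (-4.05 to -2.92). Nap1l1 held 42.4 ± 0.746, 43.2 ± 3.21, 40.2 ± 0.172 and 43.3 ± 3.86% in the same order, with exact permutation p = 0.23 for PE and 0.49 for the siRNA; without siNeg PE replicate 1 the PE difference was 2.80 percentage points (exact permutation p = 0.005). Nap1l3 ranged from 1.36 to 2.42% and Nap1l2 from 0.361 to 0.647% over all libraries. The mean Nap1l2 share was higher by 0.190 percentage points with siSlc25a26 without PE, and with PE in siSlc25a26 it changed by -0.150, in both cases without overlap of the groups.

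Of these 12 tests within strata, 4 had p under 0.05, and 0 did after Benjamini-Hochberg adjustment over the 12 exact permutation tests, the smallest adjusted value being 0.06. Single comparisons of 3 libraries against 3 cannot give an exact permutation p below 0.1, which the Nap1l5 share reached in 3 of 4 comparisons. Nap1l1 and Nap1l2 reached it for siSlc25a26 without PE and for PE in siSlc25a26, with Nap1l1 differences of -2.18 and 3.03 percentage points. Nap1l4 reached it for PE in siSlc25a26 and the Set row for siSlc25a26 under PE, at -4.23 and 2.71. On leaving out each library, the difference for PE in siSlc25a26 ran from 0.834 to 4.45 percentage points for Nap1l1 and from -5.29 to -2.57 for Nap1l4. Without the Set row the mean Nap1l5 share was 1.54, 5.19, 0.944 and 2.84% in the same order of groups.

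**Figure D3:**
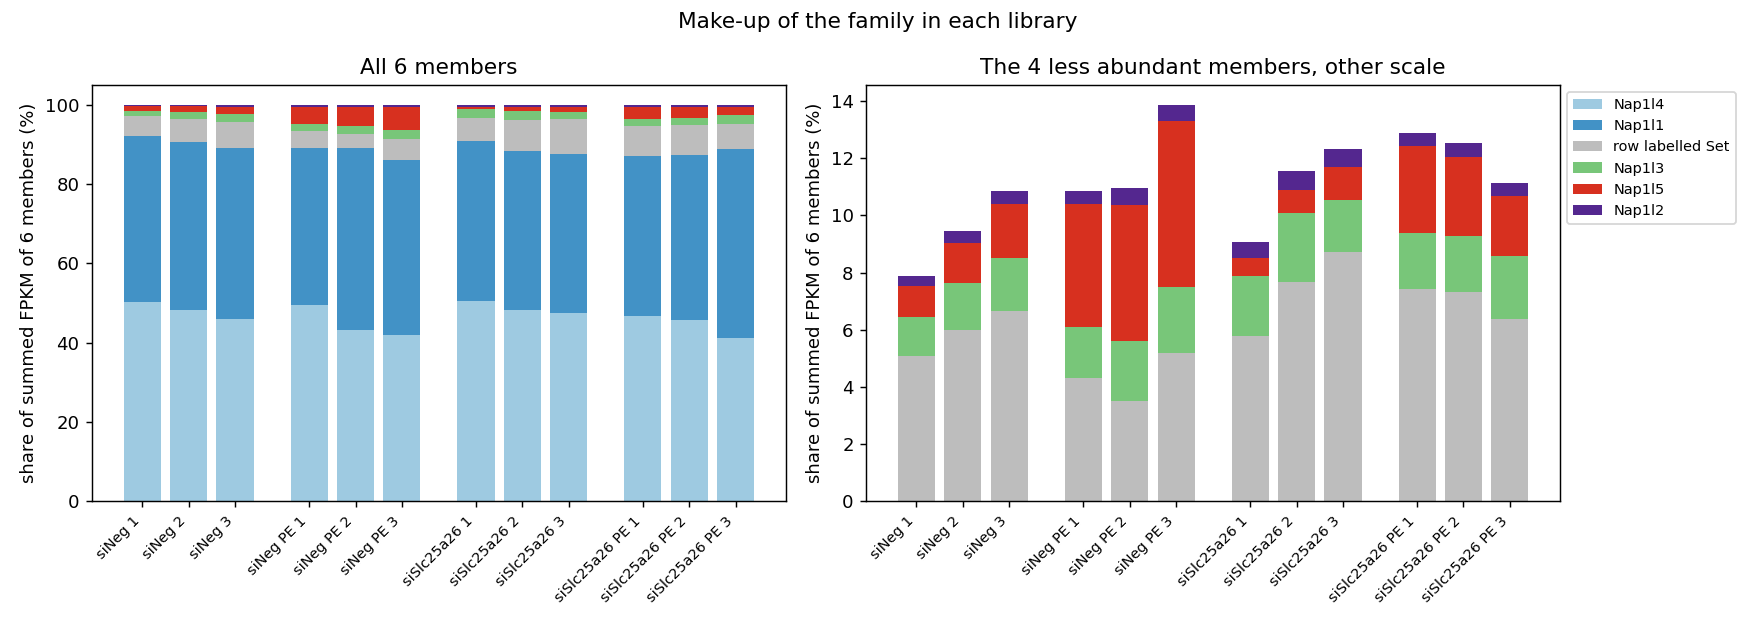
Share of each member in the summed FPKM of the 6 members (vertical axis, percent) in each library, for all members and, on another scale, for the 4 less abundant ones. The Nap1l5 part is widest in siNeg PE, at 4.30 to 5.83%.

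Nap1l5 lies inside the span of Herc3, a ubiquitin ligase gene on chromosome 4, on the opposite strand. Whether counting used strand is not given in the sources used here, so reads from bases transcribed in both genes cannot be told apart. Whether exons of Nap1l5 and Herc3 overlap was not examined. Herc3 measured 16.5, 16.1 and 18.3 FPKM in siNeg, 16.9, 16.4 and 18.8 in siNeg PE, 31.4, 31.0 and 29.9 in siSlc25a26, and 25.6, 25.6 and 26.3 in the libraries labelled siSlc25a26 PE. Both siSlc25a26 groups lay above both siNeg groups. Herc3 rose with siSlc25a26 by log2 fold changes of 0.80 ± 0.05 without PE and 0.65 ± 0.06 under PE (edgeR, adjusted p = 5.12e-06 and 6.76e-05), opposite in sign to Nap1l5. With PE it gave 0.07 ± 0.07 in siNeg and -0.08 ± 0.05 in siSlc25a26 (edgeR, adjusted p = 0.452 and 0.187), although its FPKM fell without overlap in siSlc25a26. With limma on log2(FPKM + 1) and on log2(FPKM + 0.1) that value was -0.24 and -0.25 (adjusted p = 0.00232 and 0.00233), and the difference between the PE effects passed at -0.27 and -0.28 (adjusted p = 0.0447 and 0.0489), where edgeR gave -0.17 (adjusted p = 0.2). In these settings Herc3 under PE fell below the fold threshold, at 0.55 and 0.57.

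**Figure D4:**
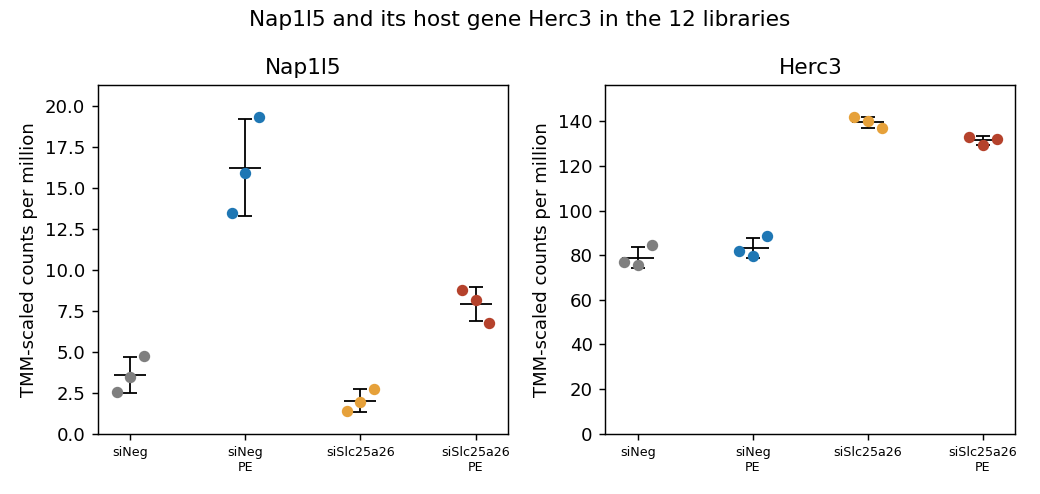
CPM (counts scaled by TMM library size) of Nap1l5 and of Herc3, the gene around it, in the 4 groups (vertical axes from 0); each point is a library, and bars show the mean and SD over 3 libraries. Nap1l5 averages 16.3 in siNeg PE and 7.91 in the libraries labelled siSlc25a26 PE, while Herc3 averages 83.3 and 131.4.

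Genes whose profile was most like each member were ranked by the root mean square difference of log2 CPM (counts scaled by library size), each centred on its own mean over 12 libraries, among 13038 genes. For Nap1l5 they were Cd164l2, Csrp2 and Wif1, at 0.36, 0.40 and 0.41 against its own spread of 1.17. For Nap1l1 they were Dnajc10, Cdk14 and the gene listed as 2-Sep (Septin2), at 0.07 each. For Nap1l4 they were Pmpca, Cops3 and Mrps31 (0.04 to 0.05), for Nap1l3 Nemf, Arl5b and Tmtc3 (0.08 to 0.09), for Nap1l2 Cd59, Dpy19l4 and Zfp91 (0.12 to 0.14), and for the Set row Tmco1, Zbtb21 and E2f3 (0.18 each). The own spreads of these members were 0.30 for Nap1l1, 0.16 for Nap1l4, 0.36 for Nap1l3, 0.32 for Nap1l2 and 0.33 for the Set row.

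The TSPY-like relatives Tspyl1, Tspyl2, Tspyl4 and Tspyl5 share the NAP domain. With PE their median log2 fold change was 0.12 in siNeg and 0.07 in siSlc25a26, and no call was made by either rule in edgeR, against 20.7% and 20.5% of all genes by the rule with the fold. Tspyl4 was called lower with siSlc25a26 without PE and under PE, at -0.99 ± 0.27 and -0.90 ± 0.28 on the log2 scale, from as few as 15 counts, as 1 of 4 genes against 16.1% and 15.8% of all genes. Under PE that call was lost without siNeg PE replicate 2 or 3 or siSlc25a26 PE replicate 1 or 2, at -0.87, -0.78, -0.72 and -0.88, and with limma on log2(FPKM + 1) both values fell below the fold threshold (-0.34 and -0.40). Tspyl1 was the most abundant, at a mean of 28.8 FPKM, and passed by the adjusted p alone under PE (-0.17, edgeR adjusted p = 0.0418).

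Of the other histone chaperones, 29 of 30 listed genes were tested. PE in siNeg called 7 of 29 higher and 0 lower, a share near the 20.7% of all genes called, with a median log2 fold change of 0.22 against 0.00 over all genes. The values ran from Atrx at 1.30 ± 0.32 to Hjurp, the chaperone of centromeric histone H3, at 0.62 ± 0.07, and Hjurp lay at the fold threshold, with its call lost without siNeg or siNeg PE replicate 3 (0.58 each) and with limma on log2(FPKM + 1) and on log2(FPKM + 0.1) (0.52 and 0.57). PE in siSlc25a26 called 1 higher, Anp32e, which removes H2A.Z, at 0.95 ± 0.09, and 0 lower, against 20.5% of all genes called. siSlc25a26 without PE called 2 higher and 0 lower, against 16.1%, Daxx, a chaperone of H3.3, at 1.11 ± 0.06 and its partner Atrx at 0.61 ± 0.20, and the Atrx call was lost without siNeg replicate 1 or 2 or siSlc25a26 replicate 1 or 2, at 0.41, 0.55, 0.52 and 0.62. It was also lost with DESeq2 (0.60, adjusted p = 0.078), the replicate block (0.65, adjusted p = 0.0675), all 12 libraries (0.63, adjusted p = 0.133) and, by its fold, limma on log2(FPKM + 1) (0.48), and held in 7 of 15 alternatives. siSlc25a26 under PE, which called 15.8% of all genes, called 1 higher, Daxx at 0.80 ± 0.08, and 3 lower, of which Asf1b, an H3-H4 chaperone of dividing cells, gave -1.16 ± 0.08. Npm1 was the most abundant, at a mean of 142 FPKM.

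Of 8 histone variant genes tested, H2afv alone was called, at -0.70 ± 0.08 with PE in siSlc25a26 (20.5% of all genes called), and the other comparisons between groups, which called 15.8% to 20.7% of all genes, called 0 of the 8 in edgeR, where 4 or 5 passed by the adjusted p alone against 40.1% to 49.5% of all genes, and H3f3b was the most abundant at a mean of 144 FPKM. Among 17 PP2A subunits and inhibitors, PE in siNeg called 3 higher and 0 lower, below the 20.7% of all genes, from Cip2a at 1.07 ± 0.17 to Arpp19 at 0.62 ± 0.09. The Arpp19 call was lost without siNeg PE replicate 3 (0.55) and with limma on log2(FPKM + 1) and on log2(FPKM + 0.1) (0.52 and 0.54), and that of Cip2a with limma on log2(FPKM + 1) (0.40). PE in siSlc25a26, with 20.5% of all genes called, called 2 higher, with Ppp2r5b at 0.87 ± 0.06, and 1 lower, Bod1 at -0.67 ± 0.07. siSlc25a26 under PE called 0 higher and 1 lower, against 15.8% of all genes, Cip2a at -0.61 ± 0.14, a call lost without siNeg PE replicate 2 (-0.50) or siSlc25a26 PE replicate 1 or 3 (-0.56 and -0.58) and with limma on log2(FPKM + 1) (-0.28). Without PE, siSlc25a26 called 0 of the 17, against 16.1% of all genes. Ppp2r1a, the scaffold subunit, was the most abundant at 173.8 FPKM.

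Among 13 nucleolar factors, PE in siNeg called 2 higher, Nop58 at 1.05 ± 0.17 and Ncl at 0.81 ± 0.16, PE in siSlc25a26 called Nop58 at 0.82 ± 0.12, and siSlc25a26 under PE called Sdad1 at 0.67 ± 0.10, against 20.7%, 20.5% and 15.8% of all genes. Without PE, siSlc25a26 called 0 of the 13, against 16.1% of all genes. With limma on log2(FPKM + 1) the Nop58 value in siSlc25a26 and the Sdad1 value fell below the fold threshold (0.57 and 0.51), the latter also on log2(FPKM + 0.1) (0.58). Nap1l5 is itself imprinted, and of 25 other imprinted genes, in a list without Nap1l5, 23 had rows. siSlc25a26 without PE called 5 higher and 3 lower of 23, against 16.1% of all genes, from Mest at 1.23 ± 0.11 to Dlk1 at -1.67 ± 0.26. Under PE it called 2 higher and 8 lower of 23, against 15.8% of all genes, with Zim1 at -1.47 ± 0.26 (-0.33 with limma on log2(FPKM + 1)) and Phlda2 at 1.17 ± 0.36, a gene with as few as 5 counts whose call was lost on leaving out any of the 6 libraries (1.11 to 1.27) and held in 4 of 14 alternatives. PE called 2 higher and 3 lower of 22 in siNeg, against 20.7% of all genes, from Asb4 at 0.90 ± 0.16 to Nnat at -1.02 ± 0.13, and 0 higher and 4 lower of 23 in siSlc25a26, against 20.5%, from Plagl1 at -0.88 ± 0.10 to Mest at -2.36 ± 0.21. Gnas was the most abundant, at 642.9 FPKM.

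In bulk RNA, fewer cells of a type and less RNA per cell cannot be told apart. The marker counts below stand against 20.7% of all genes called for PE in siNeg, 16.1% for siSlc25a26 without PE, 15.8% under PE and 20.5% for PE in siSlc25a26. Cardiomyocyte markers were present in every library, with a summed level of 10576 to 14219 FPKM led by Tnnt2, and 3 of 10 were called higher with PE in siNeg, 3 with PE in siSlc25a26 and 1 lower with siSlc25a26 without PE. The 10 fibroblast markers, led by Col1a1, summed to 4820, 4463 and 4468 FPKM in siNeg, 2445, 2487 and 2464 in siNeg PE, 2943, 2640 and 2729 in siSlc25a26, and 1606, 1684 and 1818 in the libraries labelled siSlc25a26 PE. Of them 6 were called lower with PE in siNeg, 7 with siSlc25a26 without PE and 5 under PE, with 1 called higher under PE, and 2 were called lower for PE in siSlc25a26. The 10 markers of dividing cells, led by Cdk1, summed to 109.2, 102.8 and 99.0 FPKM in siNeg, 125.8, 132.9 and 148.2 in siNeg PE, 91.1, 91.9 and 83.9 in siSlc25a26, and 77.2, 81.5 and 86.4 in the libraries labelled siSlc25a26 PE. PE in siNeg called 5 of these higher, and siSlc25a26 under PE called 6 lower. Macrophage markers, led by Cd68, summed to 22.7, 25.6 and 19.5 FPKM in siNeg and to 10.1 to 14.3 FPKM in the other groups, with 5 of the 7 tested called lower for PE in siNeg and 4 of 7 for siSlc25a26 without PE. Summed smooth muscle and pericyte markers, led by Pdgfrb, ran from 132 to 146 FPKM in siNeg and 85.5 to 120.0 FPKM elsewhere, with 3 of 5 called lower and 1 higher for PE in siNeg, 2 lower for siSlc25a26 without PE, 2 lower and 1 higher under PE and 2 higher for PE in siSlc25a26. Endothelial markers, led by Tek, summed to 6.90 to 8.13 FPKM, with 2 of the 7 tested called lower for PE in siNeg, 1 for siSlc25a26 without PE, and 1 higher and 1 lower for PE in siSlc25a26. Among neuron and neuroendocrine markers, led by Tubb3, Snap25, Elavl3, Stmn2, Th and Rbfox3 were at 3 counts or fewer in every library. Tubb3, the single marker of this list that was tested, was called lower with siSlc25a26 without PE (-0.61) and passed by the adjusted p alone with PE, at -0.52 in siNeg and 0.22 in siSlc25a26, and the list summed to 13.4 to 16.1 FPKM in siNeg and 9.27 to 10.8 FPKM elsewhere. No defining marker of the other lists was that low in all libraries. For the difference between the PE effects, where 5.5% of all genes were called and 11.2% passed, 1 of 10 markers of dividing cells was called lower and 4 passed lower (median -0.45), and 3 of 7 macrophage markers, 2 of 5 smooth muscle and pericyte markers and Tubb3 were called higher, with 0 called of the cardiomyocyte, fibroblast and endothelial markers in edgeR, of which 3, 2 and 0 passed by the adjusted p alone. The part of these markers in the changes of the family and of the other lists was not tested.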

How the data were processed

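RNA of 12 NRVM libraries, 3 in each of 4 labelled groups, was extracted with Trizol and made into libraries at BGI. The authors deposited estimated counts per gene, about 21% of them not whole, which were rounded here where the planned design had assumed whole counts. The authors also deposited FPKM, fragments per kilobase of gene scaled by the library total. The submitters' processing notes name HISAT, Bowtie2 and Rnor_6.0, without their roles. Of 18469 identifiers, 16962 (91.8%) matched RefSeq GRCr8, used for names, neighbours and promoters only.

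Each comparison was fitted with edgeR 4.0.16 in R 4.3.3 (TMM, filterByExpr, quasi-likelihood test, Benjamini-Hochberg over all tested genes) on the libraries compared, and the difference between PE effects on all 12. The procedure was tested on simulated data. Alternatives were DESeq2 1.42.0, limma 3.58.1 (voom, and log2 FPKM with pseudocounts 1 and 0.1), DESeq2 size factors, no filter, at least 10 counts in every library, a replicate block, all 12 libraries and leaving out each library. Shares were also taken from raw counts, from counts per kilobase of implied length and without Set. Exact permutation tests used scipy. Contrasts averaged over the other factor were added after the values had been seen.

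Named genes were the members, Slc25a26, Nppa, Nppb, Herc3, the 3 most similar profiles per member, and per list the most abundant gene and the called genes with the highest and lowest fold change. Members and lists were chosen with earlier results of these data known.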

Additional observations from a re-analysis of the deposited data

Results flagged for a closer look

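By edgeR's test of the difference between the PE effects on all 12 libraries 0 of 6 family members passed, although Nap1l2 did with the replicate block (-0.80, adjusted p = 0.0336) and without siNeg replicate 3 or siNeg PE replicate 1 (-0.94 and -0.93, adjusted p = 0.0464 and 0.0429), while other named genes did pass. Slc25a26, the targeted gene, rose more with PE in siSlc25a26 than in siNeg, by a log2 difference of 1.06 ± 0.13 (edgeR, adjusted p = 0.000466), from PE effects of 2.77 and 1.69. Of 29 histone chaperones tested, 3 passed with a lower PE effect in siSlc25a26 and 1 with a higher PE effect, near the 11.2% of all genes that passed. Of 10 markers of dividing cells, 4 also passed with a lower PE effect and 0 with a higher one (median -0.45), and their part in these differences was not tested. In the other direction, 3 of 13 nucleolar factors passed with a higher PE effect and 0 with a lower one. By fold and adjusted p together 0 of the 13 were called, against 5.5% of all genes. Among the chaperones, the lower log2 differences were -0.72 for Asf1b, -0.62 for Hjurp and -0.32 for Daxx (edgeR, adjusted p = 0.00195, 0.00125 and 0.0402), that of Daxx below the fold threshold, as was that of Hjurp without siSlc25a26 replicate 1 (-0.57). The higher one was Ipo9 at 0.25 (edgeR, adjusted p = 0.0303), also below the fold threshold and named after its value was seen. Of 23 imprinted genes, 4 were called lower and 0 higher, against 5.5% of all genes called, and 3 of these gave -1.97 for Mest, -0.93 for Plagl1 and -0.72 for Asb4. The Asb4 difference missed the threshold without siNeg replicate 1 or 2, siSlc25a26 replicate 1 or 2 or siSlc25a26 PE replicate 2 or 3, at -0.73 to -0.64, and the fold threshold without siNeg PE replicate 3 (-0.53), with adjusted p from 0.0143 to 0.0661 over the 12 repeats that each left out a library (edgeR). All of these rest on the libraries labelled siSlc25a26 PE.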

How the results depend on the processing

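Of 480 values of members under alternatives, 440 kept their direction and their side of the adjusted p threshold, whatever the fold, as did 760 of 804 values of other named genes and 356 of 390 share differences. By fold and adjusted p together, 457 of 480 values of members and 754 of 804 values of other named genes were called, or not called, as in edgeR on the libraries compared. Of 160 counts of called genes, 150 stayed within 1.5 times. The rise of Nap1l5 with PE under either siRNA and its fall under PE were called in all 15 alternatives. The rise of the Set row under PE passed by adjusted p in all 15 and was called in 10 of them. What caused the following changes was not tested. Some genes had few counts, among them Nap1l5 without PE (41 to 128 counts), Nap1l2, Tspyl4, Zim1 and Phlda2. A missed threshold there does not show that levels were equal. How reads of Set copies and of Nap1l5 and Herc3 were assigned was not varied.

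The settings on FPKM change the test, the scaling and the pseudocount together. With limma on log2(FPKM + 1), the counts of called genes that moved were 857 higher and 733 lower for PE in siNeg (1708 and 1130 in edgeR on counts), 452 lower for siSlc25a26 without PE (996), 623 higher for siSlc25a26 under PE (1054), 564 higher for PE in siSlc25a26 (1389) and 164 higher for the difference between PE effects (305). Counts in that setting were higher for genes called lower with PE in siSlc25a26 (1497, 1436 in edgeR) and in the difference (538, 471 in edgeR). With limma on log2(FPKM + 0.1), PE in siSlc25a26 called 824 higher and 2214 lower (1389 and 1436), and the difference 768 lower (471). Higher calls made up 49.2% for PE in siSlc25a26 in edgeR, and 27.4% and 27.1% in the FPKM settings with pseudocounts of 1 and 0.1, where the median of all genes was -0.13 and -0.17. For the difference these were 39.3%, 23.4% and 22.1%, with medians of -0.11 and -0.14.

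In the FPKM settings with pseudocounts of 1 and 0.1, Nap1l5 without PE gave -0.49 and -0.74 (limma, adjusted p = 0.0595 and 0.0607) and no longer passed, nor did Nap1l4 with PE in siSlc25a26 (0.094 and 0.095). Nap1l4 under PE came to pass (-0.20 and -0.21), as did Nap1l2 in the difference (-0.43 and -0.82) and, with a pseudocount of 1, Nap1l4 there (-0.18). Nap1l1 reversed in the difference (-0.0736 and -0.0741). Nap1l1 without PE passed with DESeq2 and with its size factors in edgeR (-0.18 in both), Set with PE in siSlc25a26 with DESeq2 (0.34), and Nap1l4 under PE with all 12 libraries (-0.13). Slc25a26 under PE, near 0 in edgeR, reversed with limma-voom (0.0044) and all 12 libraries (0.0045), and the Nppb difference with limma-voom (0.020). Share differences under PE reversed for Nap1l1 with counts per kilobase (-0.0412 percentage points), and without Set for Nap1l3 (0.0463) and Nap1l4 (0.989).

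With the replicate number as a block (replicate block), genes called higher and lower were 1803 and 1166 for PE in siNeg, 1206 and 945 for siSlc25a26 without PE, 1067 and 1128 under PE, 1326 and 1384 for PE in siSlc25a26, and 326 and 619 for the difference. Nap1l1 without PE (-0.17, adjusted p = 0.0271) and the Nap1l2 difference (-0.80, adjusted p = 0.0336) came to pass, the calls of Atrx without PE (0.65, adjusted p = 0.0675) and Phlda2 under PE (1.17, adjusted p = 0.0562) were lost, and Slc25a26 under PE (0.0032) and the Nppb difference (0.018) reversed. Deviations of libraries with the same number correlated at 0.00943 to 0.217 for PE in siNeg. Pairs with different numbers gave -0.185 to 0.0443 there. For siSlc25a26 under PE, same-number pairs gave 0.0252 to 0.209 and the other pairs -0.246 to 0.107. For PE in siSlc25a26, same-number pairs gave -0.073 to -0.00536 and the other pairs -0.0155 to 0.0611. When PE was absent, siSlc25a26 against siNeg gave -0.0913 to 0.0562 and -0.117 to 0.104 in the same order. Whether libraries with the same number shared a preparation was not tested.

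On leaving out each library, Nap1l2 with PE in siNeg ranged from 0.66 to 0.90 and Set from -0.19 to 0.10. Without PE, Nap1l1 ranged from -0.23 to -0.14 and Nap1l5 from -1.12 to -0.61. Under PE, Nap1l4 ranged from -0.19 to -0.089 and Slc25a26 from -0.14 to 0.084. For PE in siSlc25a26, Nap1l2 ranged from -0.13 to 0.052, Nap1l3 from 0.24 to 0.48 and Set from 0.16 to 0.50. In the difference, Nap1l1 ranged from -0.093 to 0.11, Nap1l2 from -0.94 to -0.68, Nap1l5 from -0.48 to 0.056, Nppa from -0.31 to 0.043, Nppb from -0.35 to 0.13 and genes called lower from 301 (without siNeg PE replicate 3) to 646. Share differences, in percentage points, ranged as follows. For PE in siNeg, Nap1l1 ran from -0.513 to 2.57. Without PE, Nap1l4 ran from -0.555 to 1.65. Under PE, Nap1l1 ran from -2.12 to 1.498, Nap1l3 from -0.154 to 0.104 and Nap1l4 from -1.87 to 1.95. For PE in siSlc25a26, Nap1l3 ran from -0.22 to 0.0763 and Set from -1.15 to 0.325. Within siRNAs, the PE difference ran from 0.804 to 2.80 for Nap1l1, from -0.0321 to 0.00212 for Nap1l2, from -4.91 to -2.92 for Nap1l4 and from -1.36 to -0.627 for Set. Within PE states, the siRNA difference of Nap1l4 ran from -0.637 to 1.27.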
